A study of Homo sapiens with 40 samples.

Results

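The genes described here control whether a lymphoma B cell lives or dies: BCL2A1, MCL1 and BCL2 (anti-apoptotic members of the BCL2 family), PMAIP1 (a BH3-only killer protein, also called NOXA), CFLAR (the caspase-8 inhibitor c-FLIP), BIRC2 (the inhibitor of apoptosis cIAP1) and PIM2 (a survival kinase). They were taken by symbol, from a list chosen with earlier results of these data known. These 7 of 4604 genes were measured by 29 of 15246 probes, from 2 probes each for CFLAR and PIM2 to 7 for BCL2, and all 7 could be tested in all 6 experiments.

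The arrays compared treated with control cells of 2 established lines of activated B cell-like diffuse large B cell lymphoma, OCI-Ly3 and OCI-Ly10, to study NF-kB and STAT3 signalling. NF-kB was blocked by an inducible IkB super-repressor (IkBsr), a form of IkB that resists degradation: cells carrying it received doxycycline at 20 ng/ml and were set against the same cells without doxycycline, for 1 to 6 h in OCI-Ly3 (9 arrays) and for 1.5 to 24 h in OCI-Ly10 (4 arrays). OCI-Ly10 cells received JAK inhibitor I at 5 uM for 3 or 6 h (4 arrays) or IL-6 at 50 ng/ml for 0.5 to 24 h (8 arrays), and OCI-Ly3 cells received IL-10 at 50 ng/ml for 1 to 96 h (10 arrays), each against untreated cells of the line. STAT3 siRNA at 4 uM was set against transfection with no siRNA in OCI-Ly10, for 8, 24 or 48 h (5 arrays). Doxycycline in cells without the construct and a non-targeting siRNA are not analysed here, so effects of the drug or of siRNA as such cannot be told apart from those of the target.

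Every value below is a log2 ratio, treated (Cy5) over control (Cy3); above 0 means more RNA in treated cells. The files do not state the base of the logarithm, which was read as 2. Of the 26 combinations of experiment and time, 14 had 2 arrays and 12 had 1. Whether repeat arrays came from separate cultures is not stated, so a p-value covers the spread among repeat arrays, which may be technical. That spread comes from the 14 combinations with 2 arrays, pooled over all experiments. An SE printed with a number of arrays was thus not measured on those arrays alone. For IkBsr in OCI-Ly10, with 1 array per time, the spread comes wholly from other experiments. With no dye swap, any bias of a gene towards 1 dye remains. A ratio gives no level, so the lines could not be checked against defining B cell markers, and in a bulk sample fewer cells of a kind and less RNA per cell cannot be told apart.

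BCL2, MCL1 and BCL2A1 hold mitochondria intact by binding the killer proteins of their family; PMAIP1 binds MCL1 and BCL2A1 and so frees those killers. CFLAR stops death receptors from activating caspase-8, and BIRC2 is a ubiquitin ligase that keeps TNF receptor signalling on the survival side. BCL2A1 and CFLAR are textbook NF-kB targets, while MCL1 and the PIM kinases are known targets of cytokine signalling through STAT proteins.

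On GRCh38.p14 the genes lie at chr15:79960892-79971196 (BCL2A1), chr1:150574558-150579610 (MCL1), chr18:63123346-63320090 (BCL2), chr18:59899996-59904305 (PMAIP1), chr2:201116164-201176687 (CFLAR), chr11:102347214-102378670 (BIRC2) and chrX:48913182-48919024 (PIM2). The sequences below are the 250 bases just before the transcription start, from RefSeq on that build, for BCL2A1, CFLAR and PIM2, because these 3 genes had lower ratios under the super-repressor in both lines. They run 5′ to 3′ on the gene's strand, at chr15:79971197-79971446 (minus), chr2:201118466-201118715 (plus, the most upstream of 4 listed starts) and chrX:48919025-48919274 (minus). Capitals mark a match, on either strand, to the kappaB motif bound by NF-kB or to the STAT motif TTCNNNGAA.
BCL2A1: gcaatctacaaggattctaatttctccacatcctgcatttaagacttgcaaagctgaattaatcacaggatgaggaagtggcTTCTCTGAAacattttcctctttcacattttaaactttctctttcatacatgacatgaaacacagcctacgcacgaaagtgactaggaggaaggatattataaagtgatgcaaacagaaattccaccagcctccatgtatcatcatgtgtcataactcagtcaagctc
CFLAR: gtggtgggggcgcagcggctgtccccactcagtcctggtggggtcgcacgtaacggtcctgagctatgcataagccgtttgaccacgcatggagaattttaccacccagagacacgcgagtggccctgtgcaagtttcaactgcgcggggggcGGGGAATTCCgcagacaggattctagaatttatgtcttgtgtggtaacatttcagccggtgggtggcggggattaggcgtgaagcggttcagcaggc
PIM2: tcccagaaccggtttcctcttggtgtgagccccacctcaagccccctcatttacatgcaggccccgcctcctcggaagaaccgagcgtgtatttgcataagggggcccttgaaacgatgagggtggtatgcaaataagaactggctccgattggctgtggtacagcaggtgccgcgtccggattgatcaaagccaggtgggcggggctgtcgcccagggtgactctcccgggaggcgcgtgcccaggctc
The BCL2A1 stretch held the STAT motif from base -168 to base -160 before the start. The CFLAR stretch held the kappaB motif from base -97 to base -88, and the stretches before the other 3 CFLAR starts held neither. Neither motif was in the stretches of PIM2, BCL2, BIRC2 or PMAIP1, and no MCL1 stretch was used. Among 34788 distinct stretches of that length, 9.95% held the kappaB motif and 6.57% the STAT motif, with no overlap between the motifs in those printed. A match describes these letters and no more.

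Averaged over each experiment's window of time points, the members moved under NF-kB block and under IL-10 in both directions. Calls are at a limma adjusted p under 0.05 over all genes. Because of how the members were chosen, a count beside the share of all genes describes them and is not a test. IkBsr in OCI-Ly3 (2 to 6 h) changed 4 of 7 members, against 14% of 4390 genes tested: 3 were lower (4.87% of all) and 1 higher (9.16%), and the member median was -0.13, against -0.025 over all genes. IkBsr in OCI-Ly10 (3 to 24 h) lowered 3 of 7, the 3 that were lower in OCI-Ly3, where 0.532% of 4515 genes were called in either direction and 0.31% were lower. The medians there were -0.21 for the members and -0.0078 for all genes.

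IL-10 in OCI-Ly3 (1 to 96 h) changed all 7, 5 higher and 2 lower, but 35.3% of 4383 genes passed as well, 16.1% higher and 19.2% lower. The member median was 0.28 and that of all genes -0.019. JAK inhibitor I (3 and 6 h) lowered 2 of 7, against 3.26% of 4480 genes called and 2.17% lower, with medians of -0.27 for the members and 0.0002 for all genes. IL-6 (1 to 24 h) changed 0 of 7 in limma, with 2 at an unadjusted p under 0.05, against 4.54% of 3301 genes called; STAT3 siRNA (24 and 48 h) likewise changed 0 of 7, with 1 at an unadjusted p under 0.05, against 3.31% of 4346 genes. Member medians were 0.044 under IL-6 and 0.014 under the siRNA, against -0.0089 and -0.012 over all genes.

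**Figure D1:**
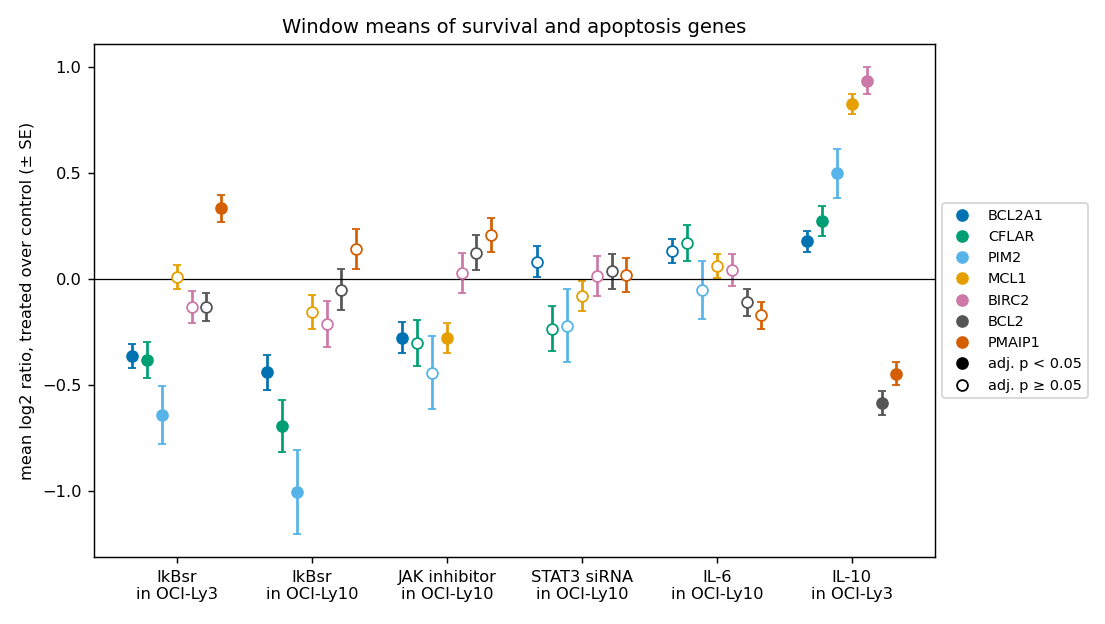
Window mean log2 ratio (treated over control, vertical axis) of each gene in each of the 6 experiments, with bars of 1 SE and filled points where the limma adjusted p was under 0.05. BCL2A1, CFLAR and PIM2 are below 0 with filled points in both IkBsr experiments, and all 7 points are filled under IL-10, with BCL2 and PMAIP1 below 0.

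Genes that report on the targeted pathways were read first. NFKBIA, which encodes IkB alpha and is transcribed by NF-kB, was at -1.61 ± 0.10 (SE, 7 arrays; limma adjusted p = 1.21e-08) under IkBsr in OCI-Ly3 and at -1.03 ± 0.15 (3 arrays; adjusted p = 0.00269) in OCI-Ly10. Its probes may also read the introduced construct. STAT3 was at -1.59 ± 0.17 (4 arrays; adjusted p = 6.4e-05) under its siRNA, at -0.69 ± 0.17 (4 arrays; adjusted p = 0.0264) under the JAK inhibitor and at 1.37 ± 0.11 (10 arrays; adjusted p = 1.45e-08) under IL-10. NFKBIA was higher under IL-10 as well, at 0.36 ± 0.085 and above 0 on 9 of 10 arrays (limma adjusted p = 0.00306). Under IL-6 STAT3 was at 0.075 ± 0.13 (7 arrays; limma adjusted p = 0.785).

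BCL2A1, which protects activated B cells, fell with time under NF-kB block. In OCI-Ly3 it was at 0.17 after 1 h, 0.45 after 1.5 h, 0.091 and 0.36 after 2 h, -0.16 after 3 h, -0.38 and -0.37 after 4 h and -1.07 and -1.20 after 6 h. All 4 arrays before 3 h were above 0 and all 5 from 3 h on were below. The window mean was -0.36 ± 0.057 (SE, 7 arrays; limma adjusted p = 0.000613), and the mean of 4 and 6 h was -0.75, against 0.28 for 1 to 2 h (difference -1.04, SE 0.10, limma adjusted p = 3.43e-05). All 5 BCL2A1 probes had negative window means. In OCI-Ly10, with 1 array per time, BCL2A1 was at -0.050, -0.14, -0.58 and -0.60 after 1.5, 3, 6 and 24 h. The window mean there was -0.44 ± 0.083 (3 arrays; adjusted p = 0.0175).

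CFLAR followed nearly the same course. In OCI-Ly3 it was at 0.26 after 1 h, 0.10 after 1.5 h, -0.072 and 0.25 after 2 h, -0.14 after 3 h, -0.49 and -0.33 after 4 h and -0.99 and -1.13 after 6 h. Its window mean was -0.38 ± 0.085 (SE, 7 arrays; limma adjusted p = 0.00713). The mean of 4 and 6 h was -0.73, against 0.15 for 1 to 2 h (difference -0.88, SE 0.16, adjusted p = 0.00616). BCL2A1 and CFLAR were the 2 of 7 members whose late and early times differed past the adjusted threshold, where 0.543% of 4422 genes differed and 0.43% were lower. At an unadjusted p under 0.05 there were 5 of 7, with PIM2 at a difference of -0.61 (limma adjusted p = 0.849), BCL2 at -0.31 (0.721) and PMAIP1 at 0.29 (0.805). Over all 6 time points, the first ones included, neither BCL2A1 (-0.14, adjusted p = 0.0716) nor CFLAR (-0.19, adjusted p = 0.0886) passed. In OCI-Ly10 CFLAR was at 0.005, -0.14, -0.76 and -1.18 after 1.5, 3, 6 and 24 h, with a window mean of -0.69 ± 0.124 (3 arrays; adjusted p = 0.0106). Both CFLAR probes were below 0 in each line.

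PIM2, a kinase that supports survival and protein synthesis, was below 0 from 2 h on. In OCI-Ly3 it was at 0.072 after 1 h, -0.038 after 1.5 h, -1.0 and -0.25 after 2 h, -0.32 after 3 h, -0.26 and -0.56 after 4 h and -1.06 and -1.34 after 6 h. All 7 arrays of the window were below 0, but the 2 arrays at 2 h were far apart. The window mean was -0.64 ± 0.136 (SE, 7 arrays; limma adjusted p = 0.00563), and it was -1.0 ± 0.198 in OCI-Ly10 (3 arrays; adjusted p = 0.0212), where PIM2 was at -0.18, -0.83, -1.04 and -1.14 after 1.5, 3, 6 and 24 h. PIM2 was the lowest member in the window of either line.

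PMAIP1, the killer protein of the set, rose in OCI-Ly3 while these 3 survival genes fell. It was at 0.10 after 1 h, 0.37 after 1.5 h, -0.20 and 0.39 after 2 h, 0.28 after 3 h, 0.41 and 0.54 after 4 h and 0.65 and 0.34 after 6 h. Only 1 of the 9 arrays was below 0, and the window mean was 0.34 ± 0.064 (SE, 7 arrays; limma adjusted p = 0.0026), with all 4 probes above 0. In OCI-Ly10 PMAIP1 was at -0.039, 0.16, 0.12 and 0.15, and its window mean of 0.14 did not pass (adjusted p = 0.998).

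At single times in OCI-Ly3, BCL2A1, CFLAR, PIM2 and PMAIP1 passed at 6 h (4 of 7 members, against 2.09% of 4396 genes); 0 of 7 passed at 1 to 4 h, where at most 1.01% of genes did. In OCI-Ly10, CFLAR passed at 24 h (1 of 7, against 0.263% of 4565 genes), with 1 array behind it. Array IDs in the titles fall into consecutive runs, which the labels do not describe. At the times covered by 2 runs in OCI-Ly3, the 2 run means were -0.45 and -0.40 for BCL2A1, -0.52 and -0.40 for CFLAR, -0.78 and -0.72 for PIM2 and 0.29 and 0.42 for PMAIP1. The 4 OCI-Ly10 arrays lay in 1 run. With the run as a random block, 2 of 7 members passed in OCI-Ly3 (PIM2 at an adjusted p of 0.0599, PMAIP1 at 0.0518) and 0 of 7 in OCI-Ly10 (adjusted p of 0.209 for BCL2A1, 0.0606 for CFLAR and 0.236 for PIM2). The OCI-Ly10 calls also rest on few arrays: without the 6 h array or without the 24 h array 0 of 7 passed, and CFLAR was at -0.45 (adjusted p = 0.971) without the latest one. Of markers under IkBsr in OCI-Ly3, 2 of 14 T and NK cell genes (-0.30 to 0.11) and 1 of 6 B cell genes (-0.22 to 0.27) were lower, beside 4.87% of all genes, and in OCI-Ly10 0 of 14 and 0 of 6 passed. Their part in the results was not tested.

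**Figure D2:**
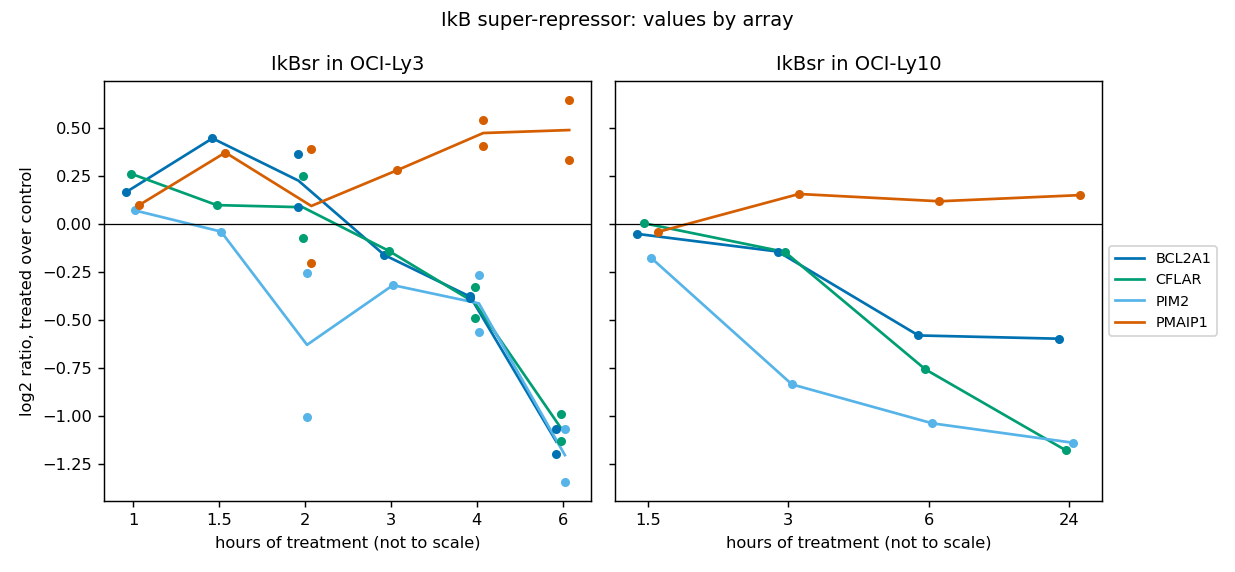
Log2 ratio (treated over control, vertical axis) of BCL2A1, CFLAR, PIM2 and PMAIP1 on every array by hours of doxycycline (horizontal axis, evenly spaced), in OCI-Ly3 (left) and OCI-Ly10 (right), with points for arrays and lines through the means at each time. In OCI-Ly3 the 3 survival genes reach -0.99 to -1.34 at 6 h while PMAIP1 is at 0.34 and 0.65.

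MCL1, BCL2 and BIRC2 did not pass under NF-kB block in either line. MCL1 stayed between -0.15 and 0.26 on the 9 OCI-Ly3 arrays, with a window mean of 0.011 (limma adjusted p = 0.906), and between -0.24 and -0.024 in OCI-Ly10. BCL2 had window means of -0.13 (adjusted p = 0.189) in OCI-Ly3 and -0.049 in OCI-Ly10. BIRC2 was at -0.13 (adjusted p = 0.24) and -0.21 (adjusted p = 0.827), but its 3 probes did not act alike: their window means were -0.32, -0.23 and 0.083 in OCI-Ly3 and -0.52, -0.17 and 0.059 in OCI-Ly10.

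The lines were compared at the shared times of 1.5, 3 and 6 h. In limma 0 of 7 members differed, as did 0 of 4384 genes (0%), with 1 member and 108 genes at an unadjusted p under 0.05. That member was PMAIP1, at 0.38 in OCI-Ly3 and 0.079 in OCI-Ly10, a difference of 0.30 with a 95% interval of 0.039 to 0.567 (unadjusted p = 0.0269 and adjusted p = 0.994 by limma). For BCL2A1 the interval of the difference ran from -0.26 to 0.21, for CFLAR from -0.42 to 0.28 and for PIM2 from -0.40 to 0.73.

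Under IL-10 BIRC2, which did not pass in either IkBsr experiment, had the highest mean of the 7. Its 2 arrays per time were at 0.41 and 0.37 after 1 h, 1.40 and 0.96 after 3 h, 1.43 and 0.97 after 6 h and 1.30 and 0.93 after 24 h, and single arrays were at 0.88 after 48 h and 0.87 after 96 h. All 10 arrays were above 0. The mean was 0.94 ± 0.063 (SE, 10 arrays; limma adjusted p = 9.62e-10), with its 3 probes between 0.88 and 0.99.

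MCL1 came next, at 0.61 and 0.50 after 1 h, 0.66 and 0.77 after 3 h, 0.81 and 0.54 after 6 h, 1.00 and 0.85 after 24 h, 0.90 after 48 h and 1.19 after 96 h. It was above 0 on all 10 arrays and in all 6 probes, with a mean of 0.83 ± 0.046 (SE; limma adjusted p = 8.43e-11). The mean of 24 to 96 h was 1.00, against 0.65 for 1 to 6 h (difference 0.35, SE 0.093, adjusted p = 0.0145), a test that 2 of 7 members passed, both higher late, against 13.5% of 4383 genes, 7.96% higher. Without the single 96 h array that difference was 0.26 (adjusted p = 0.148).

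BCL2 and PMAIP1, a protector and a killer, both fell under IL-10. BCL2 was at -0.049 and -0.17 after 1 h, -0.67 and -1.02 after 3 h, -0.68 and -1.18 after 6 h, -0.63 and -0.96 after 24 h, -0.57 after 48 h and -0.26 after 96 h. Its mean was -0.58 ± 0.055 (SE, 10 arrays; limma adjusted p = 1.26e-07), and the lowest values lay between 3 and 24 h. Of its 7 probes, 6 lay between -0.90 and -0.51 and 1 at 0.20. Without that probe, picked for its sign after seeing the data, the mean was -0.75 (adjusted p = 3.41e-07). Leaving out the only probe above 0 lowers the mean by construction, so this adds no support. PMAIP1 was at -0.19 and -0.30 after 1 h, -0.64 and -0.59 after 3 h, -0.40 and -0.69 after 6 h, -0.46 and -0.53 after 24 h, -0.58 after 48 h and -0.20 after 96 h. It was below 0 on every one of these 10 arrays, with a mean of -0.45 ± 0.054 (adjusted p = 3.23e-06). All 4 PMAIP1 probes were below 0, but 1 was at -0.17 while the others lay between -0.56 and -0.50.

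PIM2 was above 0 on all 10 IL-10 arrays, from 0.20 to 1.02, with a mean of 0.50 ± 0.115 (SE; limma adjusted p = 0.00239). CFLAR had a smaller and less even change. Its 2 arrays were at 0.31 and 0.13 after 1 h, 0.56 and 0.28 after 3 h, 0.63 and -0.15 after 6 h and 0.39 and -0.025 after 24 h, and its single arrays were at 0.21 and 0.38 after 48 and 96 h (mean 0.28 ± 0.072, adjusted p = 0.0058). At the times with 2 arrays the first of each pair lay in one run and the second in another, and the run means were 0.47 and 0.058 for CFLAR, against 1.13 and 0.81 for BIRC2 and -0.51 and -0.83 for BCL2. The part of the run in the CFLAR value was not tested.

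BCL2A1 had no single direction under IL-10. It was at 0.27 and 0.19 after 1 h, -0.15 and -0.024 after 3 h, 0.015 and -0.41 after 6 h, 0.039 and 0.002 after 24 h, 0.41 after 48 h and 0.70 after 96 h. Its mean of 0.18 ± 0.048 (SE, 10 arrays; limma adjusted p = 0.00735) rested on the ends of the course. It was 0.076 (adjusted p = 0.277) without the 96 h array and 0.13 (adjusted p = 0.0508) without the 48 h array. Over 3 to 24 h it was -0.088 (adjusted p = 0.315). The mean also varied by probe. Of 5 probes, 4 were above 0 and 1 was at -0.14. With the probe that had the most values the mean was 0.080 (limma adjusted p = 0.293). The mean of 24 to 96 h was 0.38, against -0.018 for 1 to 6 h (difference 0.39, SE 0.096, adjusted p = 0.00895), and without the 96 h array the difference was 0.23 (adjusted p = 0.246).

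At single times under IL-10, MCL1 passed at all 6, BIRC2 at the 5 from 3 h on, and BCL2 and PMAIP1 at 3, 6, 24 and 48 h. BCL2A1 passed at 96 h (0.70, limma adjusted p = 0.00248). The share of all genes that passed was 0.923% after 1 h, 3.69% after 3 h, 6.79% after 6 h, 9.8% after 24 h, 6.12% after 48 h and 14.7% after 96 h, beside 1, 4, 4, 4, 4 and 3 of the 7 members. Among markers of other cells in the IL-10 arrays, 2 of 14 T and NK cell genes were higher and 1 lower, 1 of 4 myeloid genes was higher, and of 6 B cell genes 1 was higher and 2 lower, beside 16.1% higher and 19.2% lower among all genes. Their part in the results was not tested.

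**Figure D3:**
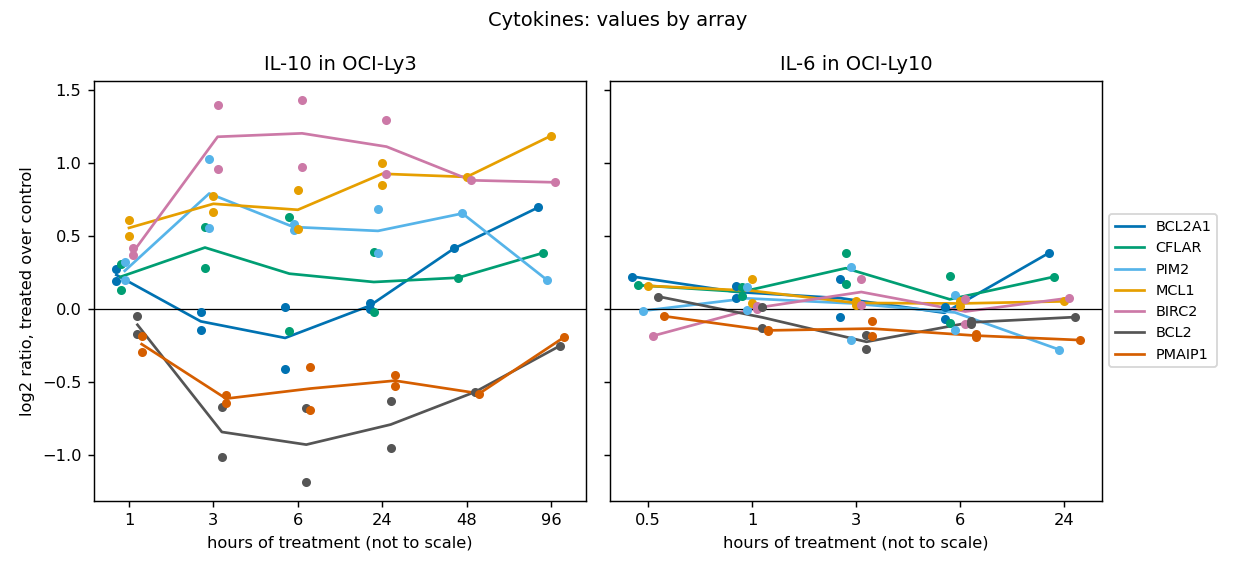
Log2 ratio (treated over control, vertical axis) of the 7 genes on every array by hours of IL-10 in OCI-Ly3 and of IL-6 in OCI-Ly10 (horizontal axis, evenly spaced), with points for arrays and lines through the means at each time. Under IL-10, BIRC2 and MCL1 lie above 0 and BCL2 and PMAIP1 below 0 on all 10 arrays, while IL-6 values stay closer to 0.

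IL-6 in OCI-Ly10 moved no member past the threshold. CFLAR was above 0 on 7 of 8 arrays, at 0.16 after 0.5 h, 0.15 and 0.086 after 1 h, 0.38 and 0.17 after 3 h, 0.22 and -0.094 after 6 h and 0.22 after 24 h, with a mean of 0.17 (limma adjusted p = 0.256). PMAIP1 was below 0 on all 8, between -0.21 and -0.050, with a mean of -0.17 (adjusted p = 0.135). MCL1 was above 0 on all 8, between 0.020 and 0.21, with a mean of 0.063 (adjusted p = 0.533). BCL2A1 averaged 0.14 (adjusted p = 0.179), BIRC2 0.044, PIM2 -0.049 and BCL2 -0.11. Only 1 of the 2 PIM2 probes had values in this experiment. Late (3 to 24 h) and early (0.5 and 1 h) IL-6 times differed for 0 of 7 members in limma, with 0 at an unadjusted p under 0.05, against 0.467% of 3212 genes. Scaling the arrays to equal spread gave 1 call, PMAIP1 at -0.19 (adjusted p = 0.0218). Of 14 listed T and NK cell genes, 8 could be tested under IL-6. Of these 8, which ranged from -0.11 to 1.05, 2 were higher. Among all genes 4.54% passed in either direction. The part of these markers in the results was not tested.

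At 1, 3, 6 and 24 h, IL-10 in OCI-Ly3 differed from IL-6 in OCI-Ly10 for 5 of 7 members, 3 higher and 2 lower under IL-10, against 9.5% of 3644 genes, 3.9% higher and 5.6% lower. BIRC2 averaged 0.97 under IL-10 and 0.044 under IL-6 (difference 0.93, limma adjusted p = 9.82e-06), MCL1 0.72 and 0.063 (0.66, adjusted p = 1.24e-05) and BCL2 -0.67 and -0.11 (-0.56, adjusted p = 0.000361). PIM2 (difference 0.58, adjusted p = 0.0497) and PMAIP1 (-0.30, adjusted p = 0.0301) stood near the threshold, and with the run as a random block the count was 3 of 7, with these at adjusted p of 0.277 and 0.232. For PIM2, a mean of 2 probes under IL-10 was set against 1 probe under IL-6. Cytokine and line cannot be told apart in this comparison.

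NF-kB block and IL-10 were set against each other in OCI-Ly3 at 1, 3 and 6 h, the block in cells carrying the construct. All 7 members differed, 5 lower and 2 higher under IkBsr, where 3.53% of 4336 genes differed, 2.21% lower and 1.31% higher. PIM2 averaged -0.48 under IkBsr and 0.54 under IL-10 (difference -1.02, limma adjusted p = 0.0124), BIRC2 -0.087 and 0.92 (-1.01, adjusted p = 3.51e-05) and CFLAR -0.31 and 0.29 (-0.60, adjusted p = 0.0178). PMAIP1 ran the other way, at 0.29 under IkBsr and -0.47 under IL-10 (difference 0.76, adjusted p = 0.000151). MCL1 averaged 0.092 under IkBsr and 0.65 under IL-10 (difference -0.56, adjusted p = 0.000888), and BCL2 -0.11 and -0.63 (0.51, adjusted p = 0.00924). BCL2A1 was the least firm (difference -0.36, adjusted p = 0.0451): the call was lost in 7 of the 10 fits that left out 1 array. Without the 1 h IkBsr array the difference was -0.63, but IkBsr at 3 and 6 h then stood against IL-10 at 1, 3 and 6 h. Leaving out single arrays left 5 to 7 calls, and the run as a random block left 5 (adjusted p = 0.163 for BCL2A1 and 0.0561 for PIM2).

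JAK inhibitor I in OCI-Ly10 lowered MCL1 and BCL2A1. MCL1 was at -0.40 and -0.27 after 3 h and at -0.11 and -0.32 after 6 h, with a mean of -0.28 ± 0.070 (SE, 4 arrays; limma adjusted p = 0.0332) and all 6 probes below 0. BCL2A1 was at -0.29 and -0.27 after 3 h and at -0.32 and -0.21 after 6 h, with a mean of -0.27 ± 0.072 (adjusted p = 0.0399). Its 5 probes lay between -0.47 and -0.066. CFLAR was also below 0 on each of the 4 arrays, at -0.43, -0.32, -0.23 and -0.23 (mean -0.30, adjusted p = 0.15). Its 2 probes were far apart, at -0.50 and -0.073. PMAIP1 was above 0 on each of the 4 arrays, at 0.26, 0.37, 0.11 and 0.090 (mean 0.21, adjusted p = 0.188). BCL2 averaged 0.13 and BIRC2 0.030.

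PIM2 under the inhibitor turned on 1 array. It was at -0.54 and -0.65 after 3 h and at 0.52 and -1.09 after 6 h, so that the 2 arrays at 6 h lay on either side of 0. The mean over the 4 was -0.44 (limma adjusted p = 0.195), and without the array at 0.52 it was -0.84 (adjusted p = 0.00321). The calls for MCL1 and BCL2A1 were no firmer: with the run as a random block the adjusted p were 0.115 and 0.126 and 0 of 7 passed, BCL2A1 lost its call without any 1 of the 4 arrays, and MCL1 without any but the array at -0.11. With the replicate number as a block CFLAR passed as well (adjusted p = 0.0333), which made 3 of 7. Of 6 B cell markers, which ranged from -0.25 to 0.68, 1 was higher under the inhibitor and 0 lower. Among all genes 3.26% were called in either direction, and 2.17% were lower. The part of that marker was not tested.

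At 3 and 6 h the inhibitor differed from IkBsr in OCI-Ly10 for 0 of 7 members in limma, with 0 also at an unadjusted p under 0.05, against 0.316% of 4435 genes. It differed from IL-6 for 0 of 7, with 5 at an unadjusted p under 0.05, against 2.17% of 4001 genes. The largest of these differences was CFLAR, at -0.30 under the inhibitor and 0.17 under IL-6 (difference -0.47 with a 95% interval of -0.79 to -0.15, limma adjusted p = 0.142). With the replicate number as a block CFLAR passed (adjusted p = 0.0267).

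STAT3 siRNA moved no member past the threshold. CFLAR was at -0.005 after 8 h, -0.54 and -0.17 after 24 h and -0.18 and -0.038 after 48 h, with a window mean of -0.23 (limma adjusted p = 0.222); 1 of its 2 probes was at -0.46 and the other at -0.002. PIM2 was below 0 on all 5 arrays, between -0.31 and -0.048 (window mean -0.22, adjusted p = 0.497). Its 2 probes were at -0.40 and -0.036. BCL2A1 was at 0.41 after 8 h, 0.24 and 0.15 after 24 h and 0.054 and -0.11 after 48 h. MCL1 lay between -0.17 and 0.035 over the 5 arrays, and its 6 probes had window means from -0.375 to 0.165. Of 14 T and NK cell genes, which ranged from -1.085 to 0.095, 1 was lower under the siRNA and 0 higher. Of 6 B cell genes 0 passed. Among all genes 3.31% passed in either direction. The part of these markers in the results was not tested.

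**Figure D4:**
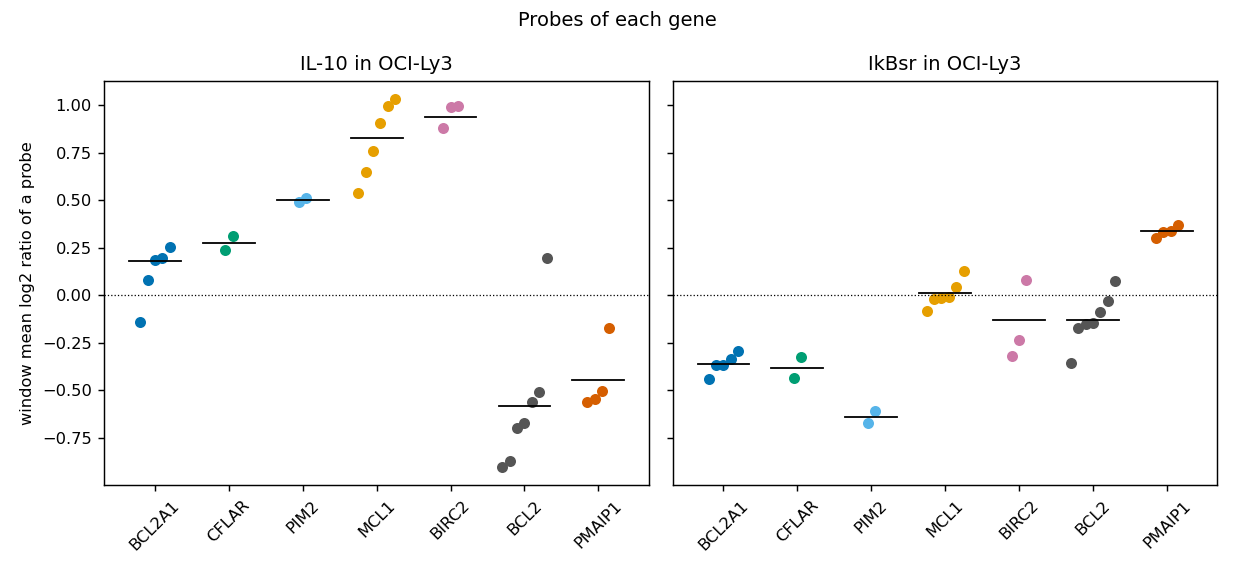
Mean log2 ratio over the window (treated over control, vertical axis) of each of the 29 probes by gene (horizontal axis), for IL-10 in OCI-Ly3 (left) and IkBsr in OCI-Ly3 (right), with a black line at the gene mean. One BCL2 probe is at 0.20 under IL-10 where the other 6 lie between -0.90 and -0.51, and 1 of the 5 BCL2A1 probes is at -0.14. Under IkBsr 1 of the 3 BIRC2 probes, 1 of the 7 BCL2 probes and 2 of the 6 MCL1 probes are above 0.

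Few other genes of cell death passed, and each count is set beside the share of all genes. Of 44 further listed genes (BCL2 family, inhibitors of apoptosis, death receptor pathway, caspases, PIM kinases), 33 were tested under IkBsr in OCI-Ly3 and BIRC6 alone passed, at -0.25 (limma adjusted p = 0.0379). Among all genes 14% passed there, with 4.87% lower. In OCI-Ly10, 0 of 32 passed under IkBsr, 0 of 24 under IL-6 and 0 of 32 under the siRNA. The shares of all genes were 0.532%, 4.54% and 3.31%. IL-10 raised 4 of 33, with BMF, a BH3-only killer, at 0.66 (adjusted p = 1.14e-06), and lowered 4, with CYCS, cytochrome c, at -0.58 (adjusted p = 0.000145), where 16.1% of all genes were higher and 19.2% lower. Under the JAK inhibitor 1 of 33 passed, PIM3 at -0.48 (adjusted p = 0.00378), beside 3.26% of all genes. Because PMAIP1 is also a p53 target, that list was counted too. Under IkBsr in OCI-Ly3, 2 of 12 were higher, PMAIP1 and the repair gene DDB2 (0.18, adjusted p = 0.0308), beside 9.16% of all genes. Under IL-10, 3 of 12 were higher, DDB2 at 0.44 among them, and PMAIP1 was 1 of the 2 that were lower. Among all genes 16.1% were higher and 19.2% lower. Under the JAK inhibitor 1 of 13 was higher, GADD45A, a stress-response gene, at 0.42 (adjusted p = 0.0144). Of all genes 3.26% passed there in either direction, and 2.17% were lower.

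Across the 26 combinations of experiment and time, which share lines, runs and 1 array platform, some members varied together. Pearson's r was 0.87 between MCL1 and BIRC2, 0.85 between CFLAR and PIM2 and 0.80 between BCL2A1 and CFLAR. PIM2 was also at 0.80 with BIRC2, 0.75 with MCL1 and 0.61 with BCL2A1. BCL2 ran against BIRC2 (-0.86) and PMAIP1 against PIM2 (-0.80), while BCL2A1 and BCL2 were at 0.061. Under IL-10 the time means of MCL1 ran from 0.55 to 1.19 and those of BIRC2 from 0.39 to 1.20. In the other 5 experiments they lay between -0.34 and 0.26 for MCL1 and between -0.28 and 0.20 for BIRC2. Within the IL-10 course MCL1 was highest after 96 h and BIRC2 after 6 h. Pearson's r without the IL-10 arrays was not computed. Among 3059 genes with a value in all 26, the most similar to BCL2A1 were PLEK (0.88) and CXCL10 (0.83), and to CFLAR they were BATF (0.86) and KIAA0753 (0.85). PIM2 was most like KIAA0753 (0.90), BATF (0.87) and TNFAIP3 (0.86), which encodes the NF-kB feedback protein A20. MCL1 was most like TRIM22 (0.95), GPR183 (0.95) and CXCL9 (0.94), and BIRC2 like TP53BP2 (0.94), AHR (0.92) and ETV6 (0.91). For BCL2 they were RCBTB2 (0.85), IL10RA (0.82) and SYVN1 (0.81), and for PMAIP1 ARHGEF3 (0.90), CSNK2A2 (0.89) and RCBTB2 (0.84).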

How the data were processed

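Per the labels' protocols, total RNA (Trizol) was labelled by reverse transcription from oligo-dT, treated cells in Cy5 and control cells in Cy3. The authors deposited log ratios of Cy5 over Cy3, read here as log2 since no base was stated; background correction, spot filter, normalization and software were likewise not given in the sources used here. Values ran from -7.868 to 5.81, 12.6% were blank, 8862 to 14947 probes had a value on an array, and array medians lay between -0.031 and 0.011. Signal over background is not used here, so precision is limited by the number of arrays.

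Arrays were median-centred and probes with 1 gene symbol (10169 of 15246; 5073 had none listed and 4 several) were averaged per gene. With limma 3.58.1 in R 4.3.3, 1 mean per experiment and time was fitted over all 40 arrays; averages over time windows, and differences at shared times, were tested with Benjamini-Hochberg adjustment over all genes tested (threshold 0.05). Genes needed values on 75% of a window's arrays and at each of its time points. Testing against 0 does not include variation of the control RNA, and a time point with 1 array takes its spread from the others. The code was tested on simulated data.

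The members and lists were chosen with earlier results of these data known. All 7 members were named, with up to 4 called genes per experiment from the apoptosis and p53 lists, the 3 genes most correlated with each member, and STAT3 and NFKBIA. Alternatives were array scaling, probe choice, time window, blocks for replicate number and run (12 runs, a gap above 50 in array IDs starting a new one), each experiment alone or against the other 5, and leaving out each array. Replicate numbers in the titles pair samples for IL-10 and IL-6: the differences between replicates 2 and 1 correlated between times at 0.393 to 0.59 and at 0.185 to 0.229, and for IkBsr in OCI-Ly3 at -0.368 to 0.336. The siRNA and inhibitor gave 1 value each (0.254 and 0.217). Gene positions and promoter stretches came from RefSeq on GRCh38.p14, matched by symbol; 6 of 7 members had a promoter entry. Protein sequences are not used here.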

Additional observations from a re-analysis of the deposited data

Results flagged for a closer look

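Of the 7 genes, 4 tests of late against early times passed within a course. Under IkBsr in OCI-Ly3, BCL2A1 averaged -0.75 at 4 and 6 h and 0.28 at 1 to 2 h, a difference of -1.04 (limma adjusted p = 3.43e-05), and CFLAR averaged -0.73 and 0.15, a difference of -0.88 (adjusted p = 0.00616). Under IL-10 in OCI-Ly3, MCL1 averaged 1.00 at 24 to 96 h and 0.65 at 1 to 6 h, a difference of 0.35 (adjusted p = 0.0145), and BCL2A1 averaged 0.38 and -0.018, a difference of 0.39 (adjusted p = 0.00895). The IL-10 differences were 0.26 for MCL1 (adjusted p = 0.148) and 0.23 for BCL2A1 (adjusted p = 0.246) without the single 96 h array. No time point had enough arrays to look for one that stands apart.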

How the results depend on the processing

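Across the windows and differences above, the 32 calls of members kept their sign under array scaling, the replicate block and the run block; 28 stayed calls with the arrays scaled to equal spread, 32 with the replicate block and 21 with the run as a random block, an alternative with a consensus correlation of 0.2687. Against the mean of the other 5 experiments, 10 of 16 window calls remained, with the sign of all 16 kept. Counts of members called moved by over 1.5 times as follows. Scaling gave 1 for IL-6, 3 for IL-10 against IL-6, 0 for late against early IL-10 and 2 for the JAK inhibitor against IL-6. The probe with the most values per gene gave 1 for the siRNA (CFLAR) and 1 for the inhibitor (CFLAR, limma adjusted p = 0.033). For CFLAR this was the lower of its 2 probes in both experiments. With the probe of most values, BCL2A1 under the inhibitor was at -0.066 (adjusted p = 0.733) and MCL1 at -0.18 (adjusted p = 0.244). That choice also gave 3 for IL-10 against IL-6, 1 for late against early IL-10 and 1 for the inhibitor against IL-6. The median of probes gave 1 for the inhibitor. With the replicate number as a block the inhibitor against IL-6 gave 1 in place of 0, the inhibitor's own count was 3 in place of 2, and no call was lost. The run block gave 2 for IkBsr in OCI-Ly3, 0 in OCI-Ly10, 0 for the inhibitor and 3 for IL-10 against IL-6; over all genes its calls were 103 in place of 616, 5 in place of 24, 22 in place of 150 (IL-6), 1025 in place of 1548 (IL-10), 46 in place of 144 (siRNA) and 77 in place of 146 (inhibitor). Each experiment alone gave 0 for the inhibitor, ended the calls of PMAIP1 under IkBsr in OCI-Ly3 (adjusted p = 0.052) and of BCL2A1 (0.0691) and CFLAR (0.0695) under IL-10, and could not be fitted for IkBsr in OCI-Ly10, which has 1 array per time. Against the other 5 experiments the counts were 0 for IkBsr in OCI-Ly10, 2 for IL-6 and 1 for the inhibitor. Over all time points they were 2 for IkBsr in OCI-Ly3 and 0 in OCI-Ly10. Among alternatives chosen after seeing the data, the inhibitor at 3 h alone gave 0, and BCL2A1 over 3 to 24 h of IL-10 reversed to -0.088. Leaving out the 1 BCL2 probe above 0 under IL-10 was another of these and changed no call of BCL2. Leaving out single arrays gave 0 to 2 for IkBsr in OCI-Ly10, 0 to 2 for the inhibitor, 3 to 5 for IL-10 against IL-6, 0 to 2 for late against early IL-10 and 0 to 1 for the inhibitor against IL-6. The causes were not tested. Most times have 1 or 2 arrays, and without channel intensities dim probes could not be set apart.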
